A study of Mus musculus with 6 samples.

Results

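The 10 genes described here, Pdgfra, Cspg4, Gpr17, Lhfpl3, Ptprz1, Cspg5, Bcan, Vcan, Ednrb and S1pr1, code for receptors and proteoglycans that are known from the surface and the surrounding matrix of oligodendrocyte progenitors. They were taken as a list, by name, from 35325 annotated protein-coding and long noncoding genes, and each was found in the annotation. For each gene, CAGE tags were summed within 500 bp of every annotated transcript 5′ end on the strand of the gene (5′ tags) and, separately, over the whole annotated gene (gene body tags), and levels are given as CPM, counts per 1000000 tags of the library. The comparison was between mESCs and mOPCs. The mESCs were the line R08, grown without feeder cells in medium with leukemia inhibitory factor at 1000 U per ml and 15% serum. The mOPCs were Oli-neu, an immortalised line of oligodendrocyte progenitors, expanded on poly-L-lysine in medium with N2 supplement, thyroid hormones (T3 at 340 and L-thyroxine at 400 ng per ml), bFGF at 10 ng per ml and PDGF-BB, a ligand of the receptor that Pdgfra encodes, at 1 ng per ml. Each cell type was therefore measured in 1 line and in its own medium, and line, medium and cell type cannot be told apart.

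Oligodendrocyte progenitors divide in response to platelet-derived growth factor, which they bind through PDGFRα, and they carry the proteoglycan NG2, the product of Cspg4. A core protein with chondroitin sulfate chains, such as NG2, neuroglycan C (Cspg5), brevican (Bcan), versican (Vcan) or the receptor phosphatase PTPRZ1, reaches from the membrane into the matrix or lies within it. GPR17, EDNRB and S1PR1 are receptors that signal through G proteins, and LHFPL3 is a protein of the membrane from a small family. In the brain, GPR17 is known from progenitors that begin to differentiate, and PDGFRα and NG2 from progenitors that still divide.

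CAGE was measured on nuclear RNA in 3 mESC and 3 mOPC libraries, which held between 16657021 and 40928704 tags. All mESC libraries carry 1 library label and all mOPC libraries another, so that preparation and cell type cannot be told apart, and the labels do not say whether the libraries of a cell type came from separate cultures, so that p-values measure the spread between these libraries, which may be technical. The study's methods define a biological replicate as cells of another passage, but do not say that this holds for the CAGE libraries. Marker counts are to be read against the 43.4% of all tested genes called higher in mOPCs and 47.8% called lower. The marker lists followed the labels for pluripotent cells, with 10 of 10 markers lower in mOPCs, and for oligodendrocyte lineage factors. Of these 5 factors, the 4 tested were higher, while Nkx2-2, a factor of the lineage, had 0 tags in mOPCs and was not tested. Of the markers of committed and myelinating oligodendrocytes, 10 of 12 were higher in mOPCs. Markers of neurons, endothelium and primitive endoderm were mostly lower in mOPCs (4 of 5, 3 of 3 and 5 of 6 tested). The astrocyte list had 3 markers higher and 2 lower of 5 tested. That of fibroblasts and pericytes had 1 and 1 of 2 tested, and that of Schwann cells 1 and 3 of 4 tested. Of the 6 microglial markers only 2 had enough tags to be tested, and both were called higher, at no more than a few CPM. Cx3cr1 and Itgam were at 0 in every library.

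Of the 10 genes, 8 had more 5′ tags in mOPCs than in mESCs and 2, Ednrb and S1pr1, had fewer, and the libraries of the cell types did not overlap for any of them. In such bulk libraries, fewer cells of a type and less RNA per cell cannot be told apart. The same 8 and 2 genes were called by the gene body tags. All 10 passed the filter on low counts. Across the 16713 genes tested on 5′ tags, 43.4% were called higher and 47.8% lower in mOPCs and 44.6% and 46.8% had libraries that did not overlap in these directions, so that most genes were called one way or the other. On gene body tags, 44.6% of 18290 genes were called higher and 46.0% lower, or 90.6% in all, and on 5′ tags 91.2% in all. By size, 6 of the 10 genes were called with a log2 fold change above 5, against 6.53% of all genes. S1pr1 and Ednrb were called with fitted values below -5, as 14.2% of all genes were, but with 1 and 0 pooled tags in mOPCs these fitted values are no measure of size. The median log2 fold change of the 10 genes was 7.05 on 5′ tags, with genes at 0 in a cell type kept at their bound or not, beside -0.12 over all genes tested.

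**Figure D1:**
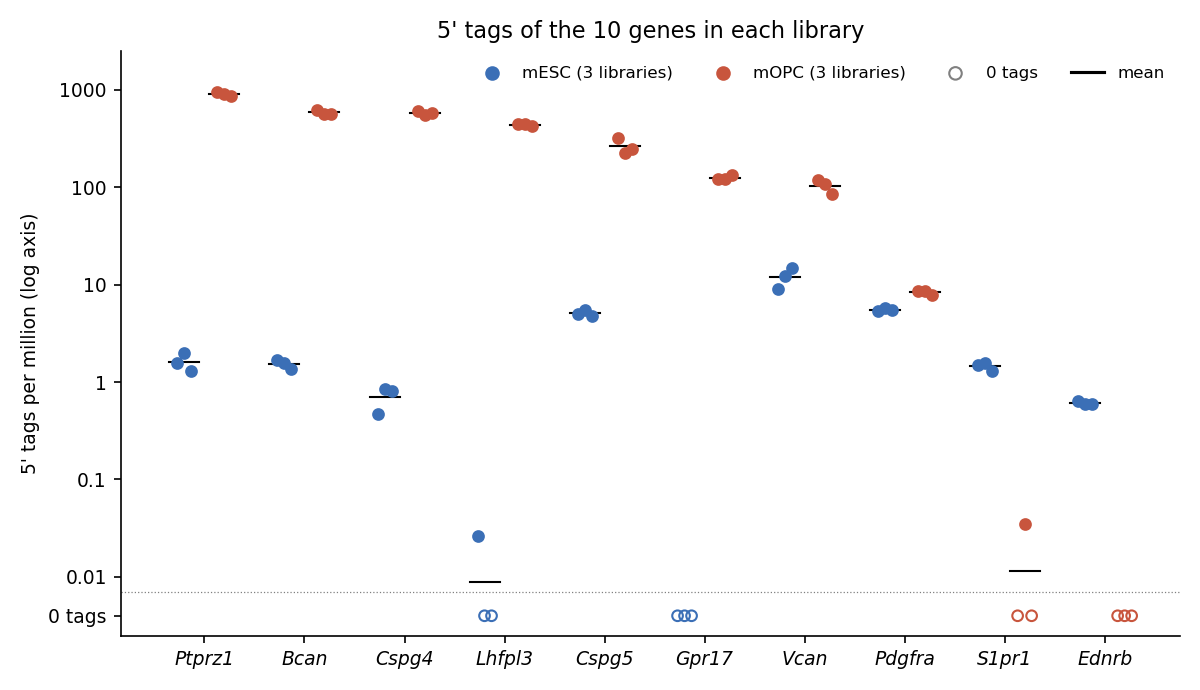
The plot gives CPM of 5′ tags of each of the 10 genes in each of the 6 libraries on a logarithmic axis, with the mean of each cell type as a short line and libraries without a tag as open circles at the bottom. The mOPC libraries lie far above the mESC libraries for 7 genes, close above them for Pdgfra (8.33 against 5.51), and below them for S1pr1 and Ednrb.

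Pdgfra, the receptor for PDGF-A, PDGF-B and PDGF-C chains, had the smallest log2 fold change of the 10 genes in its total, and its RNAs started at different places. Its 5′ tags came to 5.41, 5.70 and 5.43 in the mESC libraries and to 8.575, 8.60 and 7.82 CPM in the mOPC libraries. The mOPC values were all above the mESC values, by a log2 fold change of 0.53 ± 0.14 (SE; edgeR adjusted p = 2.63e-04). With windows of 100 bp in place of 500 bp this difference was no longer called (log2 fold change 0.06; edgeR adjusted p = 0.682). Gene body tags differed more, with 5.86 ± 0.18 CPM in mESCs and 13.05 ± 0.30 in mOPCs (SD, n = 3), a log2 fold change of 1.03 ± 0.12 (adjusted p = 4.30e-13). Pdgfra has 9 annotated transcripts, whose starts fall into 3 separate groups of windows along chr5:75152292-75198215 of GRCm38 (plus strand).

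The 3 groups of Pdgfra starts moved in opposite directions. Around the first group, which holds the starts of 5 transcripts the mESC libraries had 150, 75 and 75 tags and the mOPC libraries had 0, 0 and 0. These starts were at least 126-fold lower in mOPCs, taking 3 pooled tags as the limit that a count of 0 allows. Around the second group, with the starts of 3 transcripts, there were 55, 20 and 25 tags in mESCs and 177, 216 and 285 in mOPCs, or 1.34 ± 0.13 and 7.51 ± 0.56 CPM (SD, n = 3). Around the third, with the start of 1 transcript, the mESC libraries had 0 tags and the mOPC libraries 11, 32 and 35. The first group thus took 73.2%, 79.0% and 75.0% of the 5′ tags of Pdgfra in mESCs and 0% in each mOPC library, an exact permutation p of 0.1, the smallest that 3 against 3 libraries allow. In the annotation, the exons that begin at the first and second groups are spliced to the same next exon, in which the start codon of the protein lies. Among 2084 protein-coding genes with at least 2 separate groups of starts at 1 CPM or more, 30.7% had a group that rose and another that fell without overlap between the libraries. Of the 10 genes, only Pdgfra, Cspg4, Ptprz1, Bcan and Vcan had at least 2 such groups, and Pdgfra alone of these had groups in opposite directions.

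**Figure D2:**
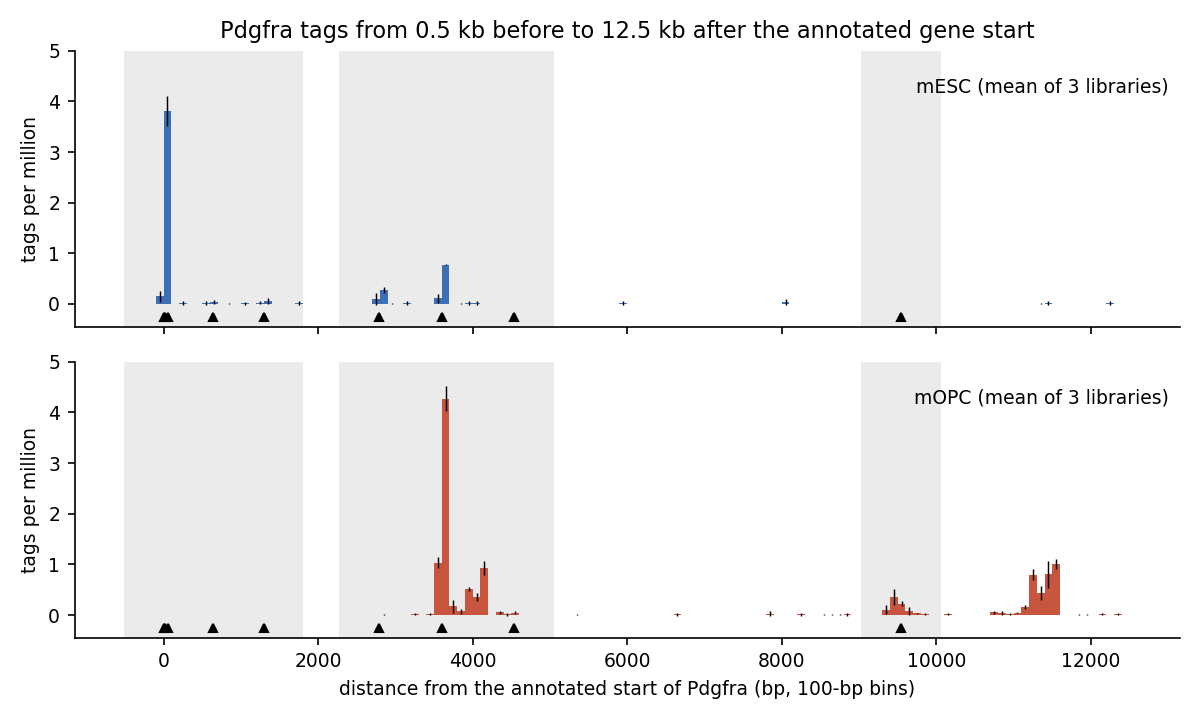
The bars give the mean CPM of 3 libraries in bins of 100 bp from 500 bp before the annotated start of Pdgfra onwards, for mESCs above and mOPCs below, with the SD as a line. Triangles mark annotated transcript starts and grey areas the windows of 500 bp around them. The tallest mESC bar lies at the first starts, where mOPCs have no bar, and the tallest mOPC bar lies within the second group of windows.

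The sequences at the main Pdgfra start of each cell type are shown because the gene was read from different exons. The mESC start lay in a cluster at chr5:75152329-75152343 with its strongest position at 75152342, and the mOPC start in a cluster at chr5:75155878-75155916 with its strongest position at 75155910. Capitals mark the strongest position and the base after it, and the stretches are chr5:75152317-75152346 and chr5:75155899-75155928, read from transcripts of GENCODE.
Pdgfra mESC: aatgcgggttttgagcccattactgTTgga
Pdgfra mOPC: gttgaaaacaaTGcaaacgctgagcataga
From 10% to 90% of its tags, the cluster of the mESC start covered 11 bp and that of the mOPC start 34 bp. A further cluster in mOPCs, at chr5:75163765-75163801, lay in an exon away from annotated starts and held 11.97% ± 1.13 of the Pdgfra tags there, with no tag in mESCs.

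The 250 bases upstream of the RefSeq start of Pdgfra, chr5:75152001-75152250, precede the starts that carried tags in mESCs and none in mOPCs, and are printed for that reason. Capitals mark the only match, on either strand, to the motifs searched.
Pdgfra upstream: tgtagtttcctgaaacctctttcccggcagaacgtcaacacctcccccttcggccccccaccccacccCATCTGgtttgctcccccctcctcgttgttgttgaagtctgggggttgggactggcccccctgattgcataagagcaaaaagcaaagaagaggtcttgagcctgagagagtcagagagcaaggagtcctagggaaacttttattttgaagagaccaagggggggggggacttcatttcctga
The match is to CANNTG, the E-box core that basic helix-loop-helix factors bind, which 72.3% of 32544 RefSeq promoters of 300 bases held at least once.

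Pdgfra is also known from the primitive endoderm of the early embryo. The 6 markers of primitive endoderm summed to between 73.4 and 91.6 CPM in mESC libraries and between 56.4 and 62.3 in mOPC libraries, most of it Dab2, with Gata4 at 10.9 ± 1.2 and Gata6 at 10.2 ± 0.47 CPM in mESCs (SD, n = 3). In mOPCs Gata6, Sox17, Sox7 and Foxa2 were at 0. Their part in the Pdgfra tags of mESCs was not tested.

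Cspg4, the gene of the NG2 proteoglycan (chr9:56865033-56899870, plus strand), had few tags in mESCs. Its 5′ tags came to 0.48, 0.84 and 0.81 CPM in the mESC libraries, from 18, 14 and 15 tags, and to 608.5, 549 and 571 CPM in the mOPC libraries. The mOPC mean was 812-fold that of mESCs, a log2 fold change of 9.71 ± 0.15 (SE, edgeR adjusted p = 7.60e-77). Here and below, this SE can be smaller than the counting error where mESC tags are few. Its tags in mOPCs came from a start at the annotated position, with 90.2% ± 0.26 of them (SD, n = 3) in a cluster at chr9:56865002-56865138 and 50.55% of that cluster at 56865062 alone, 29 bp after the annotated start. In mESCs 53.0% ± 5.57 of its tags lay in this cluster, and 39.95% ± 6.97 lay in introns away from annotated starts, against 6.47% ± 0.23 in mOPCs.

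Ptprz1 (chr6:22875502-23052916, plus strand) encodes a receptor-type tyrosine phosphatase that carries chondroitin sulfate and, as a secreted form, is found in the matrix as phosphacan. In mESCs its 5′ tags came to 1.58, 1.98 and 1.30 CPM, and in mOPCs to 943, 893 and 864. No mESC library came near the mOPC range, and the log2 fold change was 9.06 ± 0.14 (adjusted p = 3.59e-77). Its main cluster held 72.65% ± 1.24 of its tags in mOPCs and 63.5% ± 4.12 in mESCs (SD, n = 3), with the strongest position at 22875530 in mOPCs and at 22875501 in mESCs.

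The starts of Cspg4, Ptprz1, Lhfpl3, Bcan and Vcan in mOPCs are printed side by side because they show where the genes that were higher in mOPCs began, as far as the references hold these bases. Each stretch has 25 bases before the strongest position and 4 after it, and capitals again mark that position and the next base. The stretches are chr9:56865037-56865066 (Cspg4), chr6:22875505-22875534 (Ptprz1), chr5:22746098-22746127 (Lhfpl3), chr3:88000152-88000181 (Bcan, minus strand) and chr13:89742505-89742534 (Vcan, minus strand), from RefSeq promoters or GENCODE transcripts on GRCm38.
Cspg4: actggacagcccttgcgccctagccCGtgc
Ptprz1: tccgcgccgctgcgctgcgagcgctCAgat
Lhfpl3: attgcaacgcacgccgctcgctcggCGagt
Bcan: ctgctcgcgcccgcgcattgcgccgCAgtc
Vcan: gggagctcctttccgcccctccgccTGttt
In all 5 stretches, and at the mOPC start of Pdgfra, the capitals are a pyrimidine followed by a purine, the pair that most mammalian starts have before and at the first transcribed base. The mESC start of Pdgfra was the exception among the 7 stretches. Read at the deposited position itself and the base before it, 0 of 7 had this pair. The same shift of 1 base held across the promoters of the genome. Of 7689 promoters with at least 100 mOPC tags at their strongest position, 89.0% had the pair at that position and the next base. Only 1.16% had it at the base before and that position. Of 7122 promoters in mESCs, these shares were 88.2% and 1.32%. The strongest deposited position thus mostly lay on the pyrimidine of this pair, 1 base upstream of its purine, on both strands. The cause was not tested.

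Upstream of the clusters of Cspg4 and Ptprz1, no match was found on either strand to the TATA box letters TATAAA, to the E-box core CANNTG or to the SOX core letters ACAAAG, nor to the related letters ACAATG, in chr9:56864854-56865001 and chr6:22875252-22875417. These stretches are printed because a single position held 50.55% and 52.5% of their main clusters.
Cspg4 upstream: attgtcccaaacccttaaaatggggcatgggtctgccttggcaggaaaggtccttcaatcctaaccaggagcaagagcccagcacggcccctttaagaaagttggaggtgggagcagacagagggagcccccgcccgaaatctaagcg
Ptprz1 upstream: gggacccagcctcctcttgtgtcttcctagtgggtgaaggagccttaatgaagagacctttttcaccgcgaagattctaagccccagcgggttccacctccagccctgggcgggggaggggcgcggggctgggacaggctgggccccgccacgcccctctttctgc
RefSeq promoters, from 250 bases before to 50 after the RefSeq start, were at hand for 7 of the 10 genes, not for Gpr17, Cspg5 and S1pr1. None of the 7 held the TATA box letters, which 13.6% of all promoters held, nor either of the SOX core strings, which 18.7% and 12.4% held, and 3 of 7 (Pdgfra, Lhfpl3 and Vcan) held the E-box core. They had between 5 CpG pairs (Pdgfra) and 29 (Ptprz1), with a median of 15 against 7 over all promoters. These windows are set by RefSeq starts, and those of Pdgfra, Lhfpl3 and Bcan end before the main mOPC starts measured here. For Pdgfra and Bcan they do not hold the bases next to those starts, so that absent letters there say nothing about them. A match is a string of letters, not a site in use.

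Brevican and versican are lecticans, proteoglycans of the brain matrix that bind hyaluronan. Bcan (chr3:87987531-88000230, minus strand) had 1.66, 1.56 and 1.36 CPM of 5′ tags in mESCs and 624, 563.5 and 563.4 CPM in mOPCs, far apart, with a log2 fold change of 8.48 ± 0.13 (adjusted p = 2.95e-76). In mOPCs 97.0% ± 0.17 of its tags fell into a cluster at its annotated start, with the strongest position at 88000156. In mESCs 36.4% ± 6.89 fell there, with the strongest position at 88000414, upstream of the annotated gene, and 30.4% ± 2.61 lay in exons away from annotated starts (SD, n = 3). The share in this cluster did not overlap between the cell types (exact permutation p = 0.1).

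Vcan (chr13:89655312-89742509, minus strand) had 9.03, 12.3 and 14.8 CPM of 5′ tags in mESCs and 117, 107 and 84.8 CPM in mOPCs. The libraries were apart by a log2 fold change of 3.06 ± 0.14 (adjusted p = 1.86e-13), and gene body tags by 4.02 ± 0.10 (adjusted p = 2.39e-62). The coefficient of variation of Vcan was 24.1% over the mESC libraries and 16.0% over the mOPC libraries. Its starts shifted within the promoter. The cluster at chr13:89742462-89742587 held 54.7% ± 10.05 of the Vcan tags in mESCs and 28.1% ± 1.22 in mOPCs, whereas the next cluster downstream, at chr13:89742304-89742365, held 4.34% ± 2.34 and 18.2% ± 1.72 (SD, n = 3).

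Cspg5, the gene of the transmembrane proteoglycan neuroglycan C (chr9:110243783-110262576, plus strand), had 4.99, 5.52 and 4.78 CPM of 5′ tags in mESCs and 317, 222 and 248 in mOPCs. Every mOPC library was above every mESC library, by a log2 fold change of 5.62 ± 0.12 (adjusted p = 2.83e-46). Almost none of these tags came from the first annotated start of Cspg5, which had 2, 0 and 0 tags in mESCs and 5, 6 and 10 in mOPCs. They came from around the annotated starts of other transcripts further downstream. The cluster at chr9:110245367-110245545 took 35.5% ± 5.90 of all Cspg5 tags in mESCs and 63.5% ± 0.90 in mOPCs, and the cluster at chr9:110246167-110246263 held 34.15% ± 2.46 and 5.46% ± 0.13 (SD, n = 3). The mESC and mOPC libraries did not overlap in either share.

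Gpr17 (chr18:31942997-31949636, minus strand) had no tag in any mESC library, neither at its start nor in its body. The mOPC libraries had 121, 120.4 and 132 CPM of 5′ tags, from 2657, 3473 and 5404 tags. Gpr17 was at least 3060-fold higher in mOPCs, taking 3 pooled tags as the limit for mESCs (adjusted p = 4.20e-69). The tags of Gpr17 in mOPCs began at its annotated start, with 88.3% ± 0.56 in 1 cluster that covered 203 bp from 10% to 90% of its tags, and 95.2% ± 0.29 within 500 bp of the start (SD, n = 3). Gpr17 lies inside Lims2, which is read from the opposite strand, so that the strand of the tags keeps their counts apart. Lims2 had a log2 fold change of 6.49 ± 0.14 (adjusted p = 4.72e-65).

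Lhfpl3 (chr5:22746059-23275597, plus strand) is by far the longest of the 10 genes, at 529539 bp. It had a single 5′ tag in mESCs, in the library of replicate 1, and 445, 441 and 420 CPM in the mOPC libraries. From the pooled tags, the mOPC level was 31580 times that of mESCs, with an exact 95% interval from 5667 to 1247000 that covers counting error only (adjusted p = 6.12e-78). Gene body tags gave 0.26, 0.42 and 0.33 CPM in mESCs and 1189, 1185 and 1110 in mOPCs, a log2 fold change of 11.69 ± 0.15 (adjusted p = 6.86e-91).

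Most tags of Lhfpl3 in mOPCs did not come from its annotated starts. Within 500 bp of them lay 31.8% ± 0.25 of the tags, and 68.0% ± 0.23 lay in introns (SD, n = 3). Start clusters, joined from positions with at least 10 tags and kept at 0.5 CPM or more, numbered 162 on Lhfpl3, of which 158 were intronic, and the largest of these had 12.7 CPM in mOPCs. The main cluster covered 200 bp from 10% to 90% of its tags, with 7.78% of them at its strongest position, against 28 bp and 50.55% for Cspg4. The gene 6030443J06Rik, a long noncoding gene on the same strand (chr5:22550432-22807850), overlaps the 5′ part of Lhfpl3, and tags in the overlap cannot be told apart between them. Gm21846, another long noncoding gene on the same strand (chr5:22775630-22778702), also lies within Lhfpl3. The tags counted on Lhfpl3 were spread along the gene. In mOPCs 46.8% of them lay in the first 10% of the length of Lhfpl3 and 79.4% in the first 50%. That first 10% lies within the overlap with 6030443J06Rik.

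Ednrb and S1pr1, receptors for endothelins and for sphingosine 1-phosphate, were the 2 genes with fewer tags in mOPCs, both from low levels. Ednrb (chr14:103814625-103844402, minus strand) had 24, 10 and 11 of its 5′ tags in the mESC libraries, or 0.63, 0.60 and 0.60 CPM, and 0 in each mOPC library. It was at least 18.85-fold lower in mOPCs (adjusted p = 4.24e-12). In its body 4 tags remained in mOPCs against 38 in mESCs, a pooled ratio of 11.9 with an exact 95% interval from 4.30 to 46.05.

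S1pr1 (chr3:115710433-115715072, minus strand) had 56, 26 and 24 5′ tags in mESCs, or 1.48, 1.56 and 1.30 CPM, and 0, 1 and 0 in mOPCs. The pooled level in mESCs was 133 times that in mOPCs, with an exact 95% interval from 23.4 to 5310 (adjusted p = 2.58e-19). Neither gene had a position with enough tags to form a start cluster. The tags of both in mESCs lay at annotated starts, 98.7% ± 2.31 for Ednrb and 98.8% ± 2.14 for S1pr1 (SD, n = 3). In mESCs the opposite strand at the S1pr1 start, where the long noncoding gene Gm9889 is annotated, had 47, 18 and 29 tags beside the 56, 26 and 24 of S1pr1, and in mOPCs it had 0, 0 and 1.

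The place where tags start divided the genes further. In mOPCs nearly all tags of Bcan, Cspg5, Gpr17 and Cspg4 began no more than 500 bp from an annotated 5′ end (98.3% ± 0.11, 95.6% ± 0.38, 95.2% ± 0.29 and 91.2% ± 0.26), against 74.2% ± 1.39 for Ptprz1, 66.9% ± 4.56 for Vcan, 63.8% ± 2.28 for Pdgfra and 31.8% ± 0.25 for Lhfpl3 (SD, n = 3). For Pdgfra this share was 91.7% ± 1.53 in mESCs, and the libraries of the cell types did not overlap (exact permutation p = 0.1). The part of the Pdgfra tags that lay in exons away from annotated starts was 4.45% ± 1.204 in mESCs and 25.2% ± 0.33 in mOPCs. For Cspg4 and Bcan the share at annotated starts went the other way, from 54.0% ± 4.18 to 91.2% and from 67.6% ± 0.91 to 98.3%. For Ptprz1 it did not separate the cell types, at 76.4% ± 5.30 in mESCs (exact permutation p = 0.8). The mESC shares of Cspg4 and Ptprz1 rest on 88 and 154 tags in all.

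**Figure D3:**
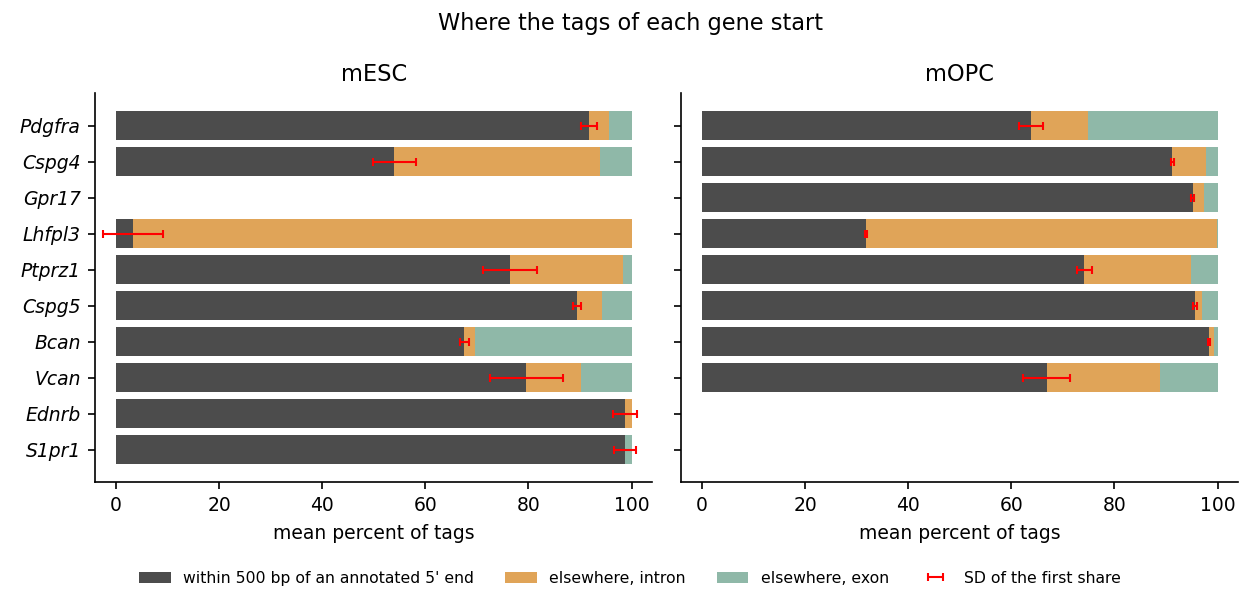
Each bar divides the tags of a gene, as a mean percent over 3 libraries, into those within 500 bp of an annotated 5′ end and those elsewhere in introns or exons, for mESCs on the left and mOPCs on the right, with the SD of the first share. Genes with fewer than 20 tags in a cell type have no bar. Lhfpl3 in mOPCs is mostly intronic, and the exonic part of Pdgfra is larger in mOPCs and that of Bcan larger in mESCs.

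Away from annotated starts, Ptprz1 had 36 further clusters in mOPCs, 24 in introns and 12 in exons, none above 2.93 CPM, beside a main cluster at 882. Cspg4 had 6 such clusters, Vcan 4, Bcan 2, Pdgfra and Cspg5 1 each and Gpr17 none. These counts changed with the libraries and the least number of tags per position. All clusters of Cspg4 numbered 7, but 4 without mOPC replicate 2 and 3 without mOPC replicate 3, and those of Gpr17 3, but 5 without mOPC replicate 3. With at least 2 tags per position Ptprz1 had 89 clusters in place of 41, Lhfpl3 251 in place of 162 and Cspg4 16. Scaled to length, intronic tags away from starts came to 176 CPM per 100 kb for Lhfpl3, 141 for Ptprz1 and 117 for Cspg4 in mOPCs, against 42.35 for Bcan, 38.1 for Vcan and 3.12 for Pdgfra. On this scale Cspg4, a gene of 34838 bp, was nearer to Ptprz1, a gene of 177415 bp, than to Bcan, a gene of 12700 bp, while 6.47% of the tags of Cspg4 and 20.7% of those of Ptprz1 were intronic.

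**Figure D4:**
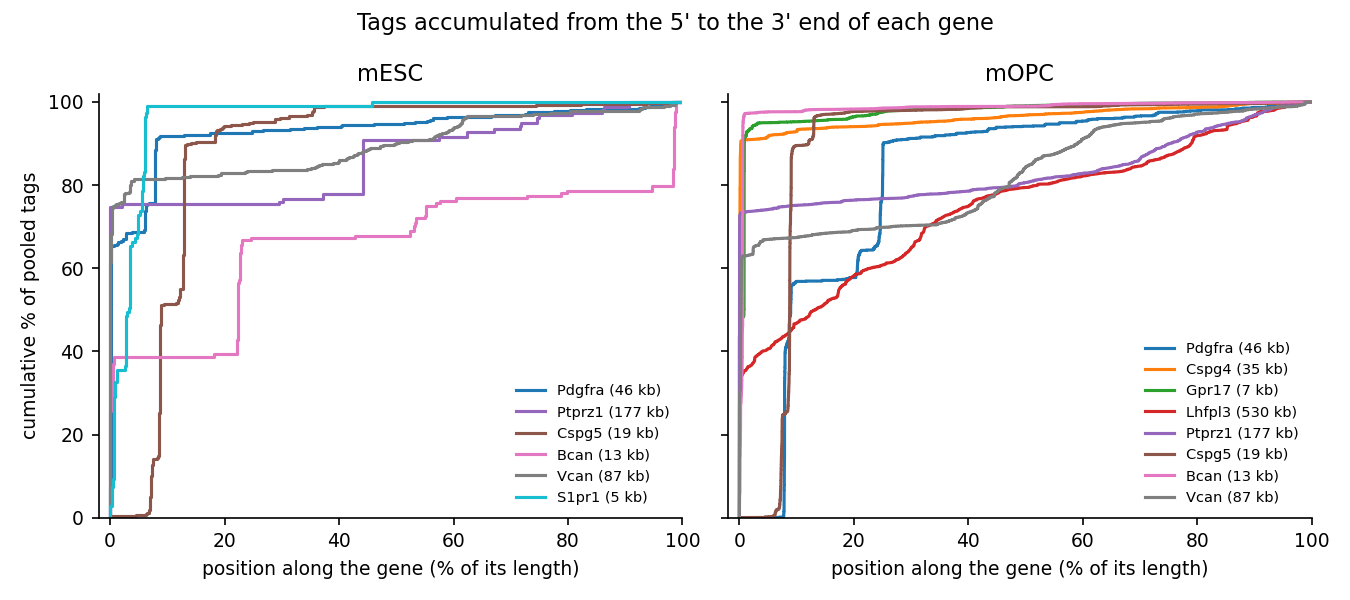
The curves give the cumulative percent of the pooled tags of a gene from its 5′ to its 3′ end against the position in percent of the gene's length, for genes with at least 100 tags in mESCs (left) or mOPCs (right). Cspg4, Gpr17 and Bcan in mOPCs rise to over 90% at the start, Lhfpl3 climbs along the gene from 40.6% at 5% of its length to 79.4% at 50%, and Pdgfra rises later in mOPCs than in mESCs.

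At the starts of the genes that were high in mOPCs, tags were found on the opposite strand as well. Lhfpl3 had 30.1, 29.8 and 33.5 CPM of such tags in the mOPC libraries, where the antisense gene A930003O13Rik is annotated, and 0 in mESCs. Bcan had 14.7, 10.65 and 11.75 CPM and Cspg5 8.16, 8.39 and 7.55, without an annotated gene on that strand. Vcan, with Gm4117 on that strand, had 6.02, 6.10 and 6.255 and the others less than 3 CPM. All of these were a small part of the tags on the strand of the gene, except for Pdgfra, which had 2.78, 1.70 and 2.565 CPM of them beside a mean of 8.33 of its own. The long noncoding genes Gm42802 and Gm42803 are annotated on that strand in the windows of Pdgfra.

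Neighbouring protein-coding genes within 500 kb moved in both directions, and their counts are to be read against the 43.4% of all genes called higher and 47.8% called lower. Around Pdgfra lie 2 tested genes, Kit, another receptor tyrosine kinase, and Chic2, with log2 fold changes of -0.04 ± 0.09 and -0.04 ± 0.085 (SE; adjusted p = 0.693 and 0.656), neither of them called. Of the tested neighbours, 7 of 12 were called higher and 3 lower around Cspg4, 8 and 3 of 11 around Gpr17, 8 and 5 of 15 around Cspg5, and 9 and 16 of 26 around Bcan. The counts were 2 and 1 of 3 around Lhfpl3, 1 and 1 of 2 around Vcan, 3 and 0 of 3 around S1pr1, 0 and 1 of 1 around Ptprz1 and 1 and 0 of 1 around Ednrb. The genes named next were chosen after their values were seen. Odf3l1, which is read away from the Cspg4 promoter on the opposite strand, had a log2 fold change of 6.06 ± 0.41 (adjusted p = 1.70e-25). Near Gpr17, Lims2 and Bin1 had values of 6.49 ± 0.14 and 5.81 ± 0.11 and Polr2d one of -2.48 ± 0.10. Near Bcan, Hapln2, a link protein gene, had 0 tags in mESCs and 187 in mOPCs. Aass, the neighbour of Ptprz1, was lower (-5.36 ± 0.41; adjusted p = 1.01e-22).

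By the distance of log2(CPM + 0.5) over the 6 libraries, the protein-coding genes nearest to Cspg4 were Dnm3 (distance 0.57), Mmp16 (0.82) and Ncald (1.14), at 0.64, 0.71 and 1.06 CPM of 5′ tags in mESCs and 486, 488 and 805 in mOPCs. Those nearest to Pdgfra were Cbr3 (0.21), Tmem109 (0.21) and Fam117b (0.29), with mESC levels between 5.33 and 5.97 and mOPC levels between 8.50 and 8.87 CPM. This likeness is a description of levels in 6 libraries.

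The other genes of the pathways were then compared on the same 5′ tags. Each count below is to be read against the 43.4% of all tested genes called higher in mOPCs and 47.8% called lower. Genes with too few tags to be tested count as neither. None of the 6 further PDGF genes, the ligands Pdgfa, Pdgfb, Pdgfc and Pdgfd and the receptor genes Pdgfrb and Pdgfrl, was higher in mOPCs and all 6 were lower. Pdgfb, whose product as a dimer is the PDGF-BB of the mOPC medium, had 435 pooled tags in mESCs and 2 in mOPCs, a ratio of 273 with an exact 95% interval from 75.2 to 2264. Pdgfrl, a gene related to the receptors, had 405 tags in mESCs and 0 in mOPCs, at least 170-fold lower. Pdgfc was lower by a log2 fold change of -2.55 ± 0.12 (adjusted p = 5.29e-37). Pdgfrb, the second PDGF receptor, had 56 pooled tags in mESCs and 3 in mOPCs, a ratio of 23.5 with an exact 95% interval from 7.62 to 117.

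Of 9 genes whose products bind lecticans or are lecticans themselves, 5 were higher in mOPCs and 2 lower (median log2 fold change of the 7 tested 6.56). Tnr, the gene of tenascin-R, a matrix protein that lecticans bind, had 0 tags in mESCs and 1007 ± 57.9 CPM in mOPCs (SD, n = 3), at least 24610-fold higher. Tnc, which encodes tenascin-C, had 0 and 46.4 ± 4.27 CPM, at least 1116-fold higher. Hapln4, the gene of a link protein that joins lecticans to hyaluronan, went the other way, with 434 pooled tags in mESCs and 0 in mOPCs, at least 182-fold lower. Of 6 proteases that cut lecticans, 5 were tested, 4 of them higher and 1 lower. Adamts1, Adamts20 and Adamts4 had log2 fold changes of 6.19 ± 0.135, 4.99 ± 0.11 and 4.76 ± 0.12, with mOPC levels of 101, 193 and 87.3 CPM.

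Among 8 ligands, partners and the relative of PTPRZ1, 7 were tested. Of these, 4 were higher in mOPCs and 3 lower, beside 43.4% and 47.8% of all genes tested. Cntn1, whose product contactin-1 binds PTPRZ1 on the cell surface, rose from 6 pooled tags in mESCs to 977 ± 75.35 CPM in mOPCs, a log2 fold change of 13.39 ± 0.19 (adjusted p = 3.51e-79). Mdk, which encodes the ligand midkine, fell from 58.8 ± 2.20 to 0.064 ± 0.061 CPM. Ptn, another ligand gene of this list, named after its values were seen, went the other way. It rose from 0.45 ± 0.034 to 147 ± 4.63 CPM, a log2 fold change of 8.26 ± 0.15 (edgeR adjusted p = 1.30e-70). Cntn2, the gene of contactin-2, had 431 pooled tags in mESCs and 0 in mOPCs, at least 180.5-fold lower.

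Chondroitin sulfate chains are built and then sulfated by separate sets of enzymes. Of 12 genes of chain assembly, 9 were higher in mOPCs and 2 lower, with a median log2 fold change of 0.99, beside 43.4% and 47.8% of all genes tested and a median of -0.12. Csgalnact1, which starts a chondroitin chain on the linker sugars, rose from 0.30 ± 0.11 to 59.7 ± 4.64 CPM (log2 fold change 7.61, edgeR adjusted p = 8.79e-62). Its pooled ratio was 210, with an exact 95% interval from 137 to 340. Xylt1, which adds the first sugar to the core protein, rose from 10.2 ± 0.26 to 391.5 ± 46.75 CPM. Chsy3, a chain polymerase, had 5 pooled tags in mESCs and 342 in mOPCs. Of 10 genes of sulfation and epimerisation, 9 were tested, 5 of them higher and 3 lower. Chst11 and Chst3, sulfotransferases for different positions of the sugar, had log2 fold changes of 6.06 ± 0.14 and 4.88 ± 0.15. Chst14, which sulfates the dermatan form of the chain, had 231 pooled tags in mESCs and 2 in mOPCs, a ratio of 145 with an exact 95% interval from 39.7 to 1206.

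The pathways of the receptors that signal through G proteins differed in direction. Of 6 endothelin genes, 4 were tested, 3 of them lower and none higher. Ednra, the gene of the other endothelin receptor, was not tested and was at 0 in mOPCs as Ednrb was. Ece2, an endothelin-converting enzyme, had 291 pooled tags in mESCs and 3 in mOPCs, a ratio of 122 with an exact 95% interval from 41.3 to 594.5. Ece1, the other such enzyme gene, named after its values were seen, had more tags and was not called. It was at 30.3 ± 0.22 CPM in mESCs and 28.9 ± 1.90 in mOPCs (edgeR adjusted p = 0.161). Of 12 genes of sphingosine 1-phosphate, 8 were tested, 4 of them higher and 3 lower. The receptor gene S1pr3 had 204 pooled tags in mESCs and 1 in mOPCs, and Sphk1, a kinase that makes the ligand, had 87 and 0, at least 36.4-fold lower. Sphk2 and S1pr2, named after their values were seen, were at higher levels than these. Sphk2, the other kinase gene, was at 25.8 ± 1.02 CPM in mESCs and 31.0 ± 1.07 in mOPCs (edgeR adjusted p = 0.0499). The receptor gene S1pr2 was at 21.9 ± 1.74 and 24.2 ± 1.31 CPM and was not called (edgeR adjusted p = 0.481). Sgpp1, a phosphatase that removes the ligand's phosphate, was higher by 2.79 ± 0.11 (adjusted p = 2.89e-44). Of 9 P2Y and cysteinyl leukotriene receptor genes, the relatives of Gpr17, 4 were tested, 3 of them higher and 1 lower. P2ry1 was at 5.17 ± 0.91 CPM in mESCs and 50.0 ± 2.81 in mOPCs, and P2ry2 at 3.85 ± 0.72 and 10.3 ± 1.197. Of the 5 other genes of the LHFPL family, 4 were tested, 2 of them higher and 2 lower. Lhfpl2 rose by 5.47 ± 0.11 and Lhfpl4 by 4.14 ± 0.14 on the log2 scale, and Lhfp fell by 1.18.

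**Figure D5:**
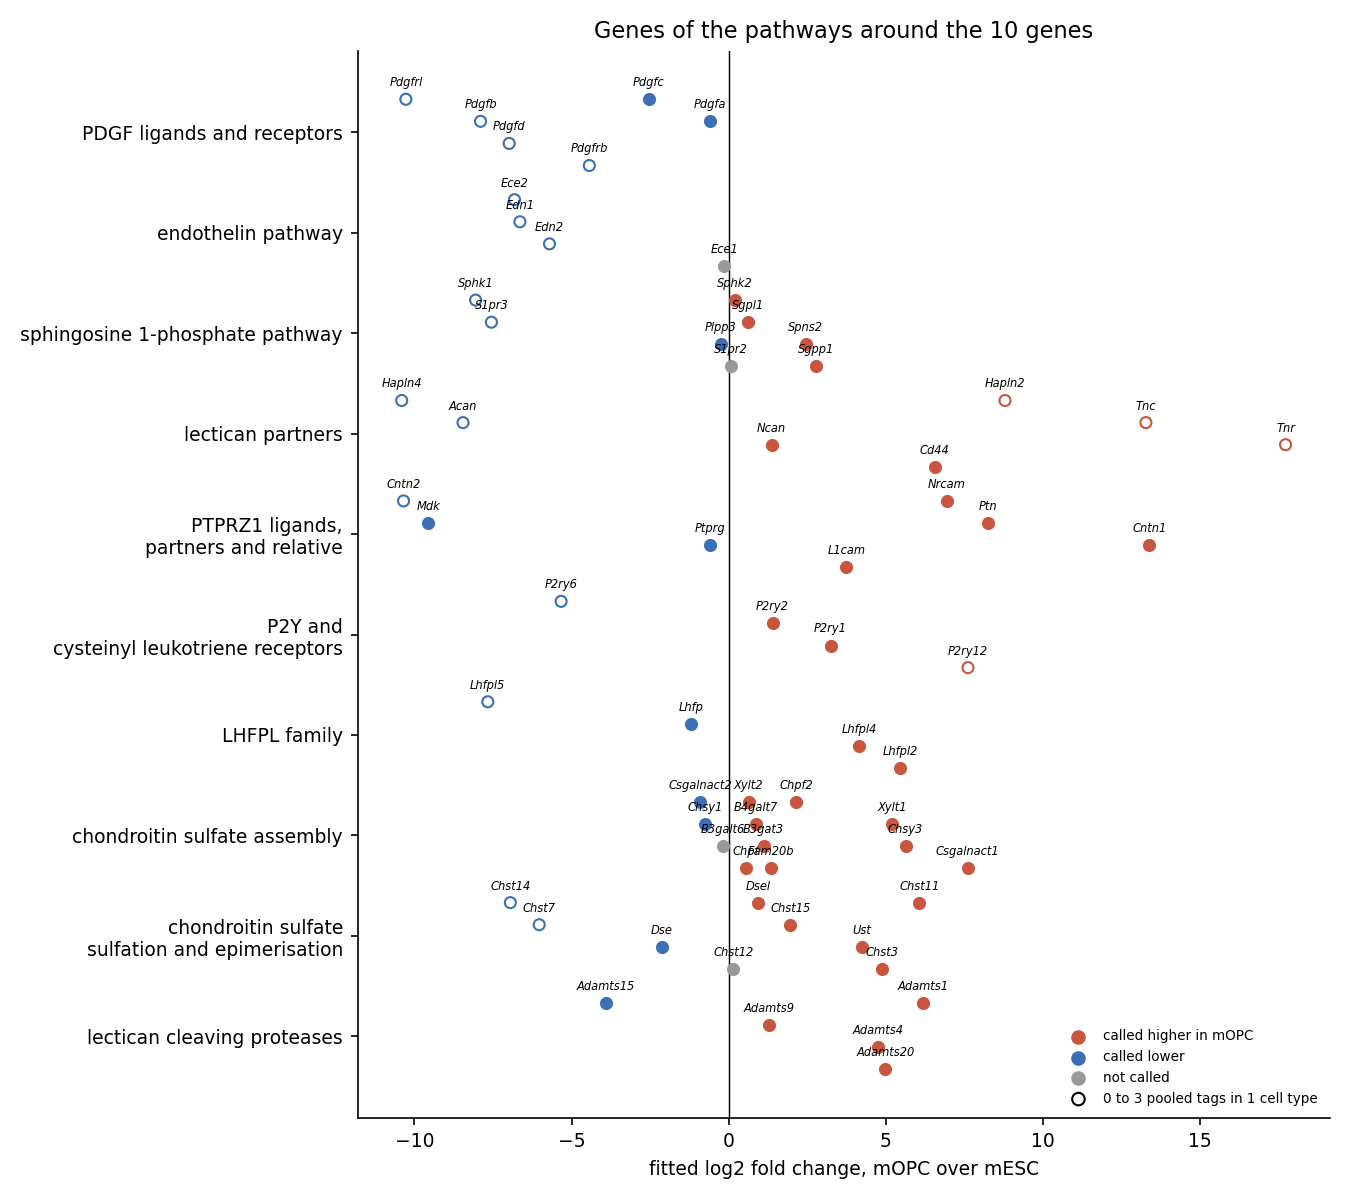
Each point is a gene of a pathway list, placed by its fitted log2 fold change of 5′ tags in mOPCs over mESCs, red where called higher, blue where called lower and grey where not called, filled where both cell types had more than 3 pooled tags and open where 1 cell type had 0 to 3, so that its fitted value is no measure of size. The PDGF list lies on the left of 0 and most points of chain assembly on the right.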

How the data were processed

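Nuclear RNA of 3 mESC and 3 mOPC libraries was measured by CAGE. The deposited files hold raw tag counts per transcription start position and strand, which the authors made by aligning reads to mm10. The submitters' processing notes name CASAVA 1.8 and BWA 0.5.9, without saying what each did, whereas the study's methods describe mapping with bowtie, unique alignments only, and start sites taken with CAGEr. Which of these made the deposited files is not settled here. Library totals were the sums of all deposited tags. The totals ranged from 16657021 to 40928704 tags, so that 3 pooled tags correspond to 0.0411 CPM in mESCs and 0.0327 in mOPCs. Intervals and limits cover counting error only.

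Tags were summed per gene of GENCODE vM21 (GRCm38), within 500 bp of annotated 5′ ends and over gene bodies. Genes passing filterByExpr were fitted with edgeR 4.0.16 (quasi-likelihood test, TMM factors, robust, R 4.3.3), and genes with a Benjamini-Hochberg adjusted p under 0.05 were called. The SE of a log2 fold change is its size divided by the square root of the F statistic of the edgeR test. It can be smaller than the counting error where a cell type has few tags. Single values were compared with two-sided exact permutation tests. Clusters joined positions of at least 10 pooled tags within 20 bp and were kept at 0.5 CPM. Cluster and promoter sequences came from GENCODE transcripts and RefSeq promoters (GRCm38.p6), as no genome sequence was used here. All 10 genes are named, and of each pathway list up to 3 genes with the largest log2 fold change at 1 CPM or more in a cell type, besides genes whose choice after seeing values is stated or that complete a receptor family or marker list. The genes and lists were chosen with earlier results of these data known.

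On simulated data for the 5′ comparison (16279 genes, 200 changed by 2 on the log2 scale), 200 were recovered and 10 of 210 calls were false. The changed genes were all above 1 CPM, and every gene had the same biological coefficient of variation, 0.1. The simulation therefore does not cover genes at lower levels, such as Ednrb, or data in which most genes change. The alternatives were DESeq2 1.42.0, no TMM, no filter, equal depth, other windows, a replicate block and leaving out each library. Python 3.11.15 with pandas 2.3.3 and scipy 1.17.1 was used for the rest.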

Additional observations from a re-analysis of the deposited data

How the results depend on the processing

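The 8 genes called higher in mOPCs kept their direction in every alternative run, and 7 were called with windows of 100 bp, where Pdgfra had a 5′ log2 fold change of 0.061 (adjusted p = 0.682). Over its 15 alternatives the 5′ value of Pdgfra lay between 0.06 and 0.59 and was called in 14. The number of genes called lower on 5′ tags was 1 at equal depth and 0 with windows of 100 bp, and on gene body tags it was 1 at equal depth and between 1 and 2 when a library was left out (1 without mESC replicate 1). In each of these, Ednrb, and at 100 bp also S1pr1, had too few tags to be tested. With windows of 100 bp the median share of tags at annotated starts was 57.3% in mESCs and 64.1% in mOPCs, beside 78.0% and 70.5%. The mESC share was thus the larger with 500 bp and the mOPC share the larger with 100 bp. Start clusters numbered 385 with at least 2 tags per position, beside 235. Without TMM, the median log2 fold change of gene body tags over all genes moved by 0.127. Same-numbered libraries did not deviate together (correlations of -0.003, 0.060 and 0.006), which cannot settle whether the numbers pair libraries. A replicate block gave 7228 genes higher and 7996 lower on 5′ tags, beside 7251 and 7992, with 8 and 2 of the 10 genes. Under alternatives, 462 values stayed on their side of the threshold or within their margin, 16 moved further and 1 lost its call. No log2 fold change reversed, and a reversal was scored for log2 fold changes only. Depth limits Ednrb, S1pr1 and the mESC values of Cspg4, Lhfpl3 and Bcan.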
